A study of Mus musculus with 16 samples.

Results

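Btnl1, Btnl2, Btnl4 and Btnl6, which encode butyrophilin-like surface proteins of the gut epithelium, and Clec2h, which encodes a C-type lectin-like surface protein, were followed through cultures of the mouse small intestine. The 5 genes were chosen by their measured values: they were picked with their levels in adenoma against normal epithelium in view, so that difference is described here without a test. Of the 5, only Btnl1, Btnl2 and Clec2h had a probe set of their own, 1 each, which makes them 3 of the 22180 genes so measured. Btnl4 and Btnl6 were read together by 1 probe set that carries both symbols, so neither had a value of its own. All 3 genes with their own probe set passed the filter on dim genes, which kept 18095 genes.

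RNA was hybridised to 16 expression arrays, which held 14 biological samples from 9 C57Bl/6 animals labelled male and killed at 8 to 10 weeks. Wild-type small intestinal organoids, which are epithelial structures grown from crypts in a gel, were cultured alone (animals P28 and P30) or for 24 h below an insert with 0.4 µm pores that carried wild-type small intestinal myofibroblasts (the same 2 animals). Wild-type myofibroblasts, here called fibroblasts, were cultured alone or with organoids (animals Pl_I, Pl_II and Pl_III in each condition). The adenoma cells came from 4 Apc+/1638N animals, P21, P23, P34 and P36, which carry 1 truncating germline allele of the tumour suppressor Apc, with P21 and P34 each run on 2 arrays that were averaged. The adenoma sources also carry the note n = 3, whose meaning is not given, and no culture step specific to adenoma cells is stated, so genotype, tumour state and culture history cannot be told apart. The third fibroblast culture grown alone is titled Pl_III but its source name says Pl_II, and the title was followed.

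Butyrophilins and butyrophilin-like proteins belong to the immunoglobulin superfamily and are related to the B7 ligands that tune T cell activation. On small intestinal enterocytes, Btnl1 pairs with Btnl6, and can pair with Btnl4, to form complexes that are recognised by gamma-delta T cells living between the epithelial cells, and these complexes shape that T cell compartment. Btnl2 dampens T cell activation in culture assays. Clec2h encodes Clr-f, which is made by intestinal epithelium and binds lectin-like receptors of the Klrb1 group on natural killer cells and T cells.

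The 4 butyrophilin-like genes lie together on mouse chromosome 17 beside the MHC class II genes. In RefSeq's GRCm38.p6 gene order, Btnl2 comes first, next to H2-Ea, and is followed by Btnl1, Gm15321, BC051142, Btnl4, the pseudogene Btnl5-ps, Gm15331 and Btnl6. Clec2h lies on chromosome 6, with Clec2j before it and the receptor genes Klrb1 and Klrb1c just after it. The 250 bases before each start site are shown, from RefSeq's GRCm38.p6 promoter table, because the measured genes shared a level pattern and because Btnl4 and Btnl6 could not be separated on the array. All 5 genes matched by symbol. Btnl1 is at chr17:34376882-34377131 (plus strand), Btnl2 at chr17:34354572-34354821 (plus), Btnl4 at chr17:34475938-34476187 (minus), Btnl6 at chr17:34517353-34517602 (minus) and Clec2h at chr6:128662135-128662384 (plus). Each sequence runs 5′ to 3′ on the gene's own strand, and capitals mark matches to the motifs named after it.
Btnl1: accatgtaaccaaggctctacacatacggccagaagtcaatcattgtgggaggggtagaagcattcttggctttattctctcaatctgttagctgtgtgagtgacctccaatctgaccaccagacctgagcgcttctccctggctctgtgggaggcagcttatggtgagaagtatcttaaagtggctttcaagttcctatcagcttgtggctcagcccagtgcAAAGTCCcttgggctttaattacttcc
Btnl2: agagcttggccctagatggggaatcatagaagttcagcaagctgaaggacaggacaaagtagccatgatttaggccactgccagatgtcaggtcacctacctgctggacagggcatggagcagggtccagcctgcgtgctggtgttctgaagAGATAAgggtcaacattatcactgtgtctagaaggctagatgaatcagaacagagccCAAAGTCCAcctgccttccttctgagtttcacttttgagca
Btnl4: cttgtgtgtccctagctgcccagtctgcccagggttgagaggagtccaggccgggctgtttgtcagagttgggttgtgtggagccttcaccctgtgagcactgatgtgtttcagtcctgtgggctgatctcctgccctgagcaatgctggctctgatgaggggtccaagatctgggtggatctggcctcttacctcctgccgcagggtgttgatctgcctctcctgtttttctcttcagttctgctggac
Btnl6: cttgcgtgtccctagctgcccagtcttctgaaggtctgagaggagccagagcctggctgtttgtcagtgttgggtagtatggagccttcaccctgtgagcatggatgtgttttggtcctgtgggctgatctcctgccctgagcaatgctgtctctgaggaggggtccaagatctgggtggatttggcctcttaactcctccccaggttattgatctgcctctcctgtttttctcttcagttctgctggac
Clec2h: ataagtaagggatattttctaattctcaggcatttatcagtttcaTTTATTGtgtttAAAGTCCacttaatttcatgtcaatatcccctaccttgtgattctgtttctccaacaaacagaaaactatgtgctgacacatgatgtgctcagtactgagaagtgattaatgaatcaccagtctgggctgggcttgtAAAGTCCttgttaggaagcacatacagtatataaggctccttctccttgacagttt

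The Btnl4 and Btnl6 windows were near copies of each other: 275 of 302 aligned columns were identical, or 91.1%. The other 9 pairs, aligned the same way over the 300-base windows that reach 50 bases past the start site, lay between 46.1% and 50.9%. Motifs of gut transcription factor families were searched on both strands of those windows. The HNF4 motif CAAAGTCCA was found in Btnl2 alone, starting 41 bases before the start site, and is present in 0.475% of all 32851 windows. The GATA motif AGATAA also occurred in Btnl2 alone, 98 bases before the start, and is present in 11.2% of windows. The CDX motif TTTATNG occurred in Clec2h alone, 205 bases before the start, and is present in 10.9% of windows. The shorter string AAAGTCC, which lies inside the HNF4 motif and was added after these windows had been seen, was present in Btnl1 at 27 bases, in Btnl2 at 40 bases and in Clec2h at 193 and 56 bases before the start, against 4.21% of all windows. A match of letters is a description only, and the matches of AAAGTCC and CAAAGTCCA in Btnl2 overlap.

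All 3 measured genes were high in both organoid groups and near the lower end of the scale in adenoma cells and fibroblasts. All levels are log2 values of a probe set, and a level is compared only with levels of the same probe set. Group means at or under 2.67, the 30th percentile of all probe set means, are called dim. Btnl1, the partner common to the epithelial complexes, measured 10.43 and 10.24 in organoids alone (P28 and P30) and 9.44 in both co-cultured samples. In adenoma cells Btnl1 measured 2.21, 2.01, 2.12 and 2.07 in P21, P23, P34 and P36. Its fibroblast levels were 2.44, 2.26 and 2.33 alone and 2.45, 2.04 and 2.16 in co-culture (Pl_I, Pl_II and Pl_III). Thus the 4 organoid samples stood apart, the co-cultured pair lay below the pair grown alone, and the remaining 10 samples lay between 2.01 and 2.45, under the dim level.

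Btnl2, the butyrophilin-like gene nearest the MHC class II genes, showed the same order of groups. It measured 9.10 and 9.21 in organoids alone and 8.40 and 8.59 in co-cultured organoids. The adenoma levels were 3.02, 3.58, 3.11 and 2.96. Fibroblasts gave 3.25, 3.56 and 3.09 alone and 3.24, 3.13 and 3.04 in co-culture. The 2 organoid groups did not overlap each other or any other group, whereas adenoma and fibroblast samples were interleaved. How many of all genes show such a separation was not counted, for Btnl2 or for the other members.

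Clec2h, the Clr-f gene, measured 11.29 and 11.31 in organoids alone and 10.82 and 10.69 in co-culture. It measured 3.76 and 3.55 in the adenoma cells of P21 and P23 but 2.87 and 2.70 in those of P34 and P36. Fibroblasts gave 2.40, 2.99 and 2.35 alone and 2.63, 2.37 and 2.16 in co-culture. Adenoma samples overlapped with fibroblasts alone, and all 4 lay above the 3 co-cultured fibroblast samples, by as little as 2.70 against 2.63. In each of the 3 genes, organoids alone were highest and co-cultured organoids second, and the 3 low groups overlapped except in 2 pairs: Clec2h in adenoma cells against co-cultured fibroblasts, and Btnl1, whose 4 adenoma samples (at most 2.21) lay below the 3 samples of fibroblasts alone (at least 2.26) with both means dim.

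**Figure D1:**
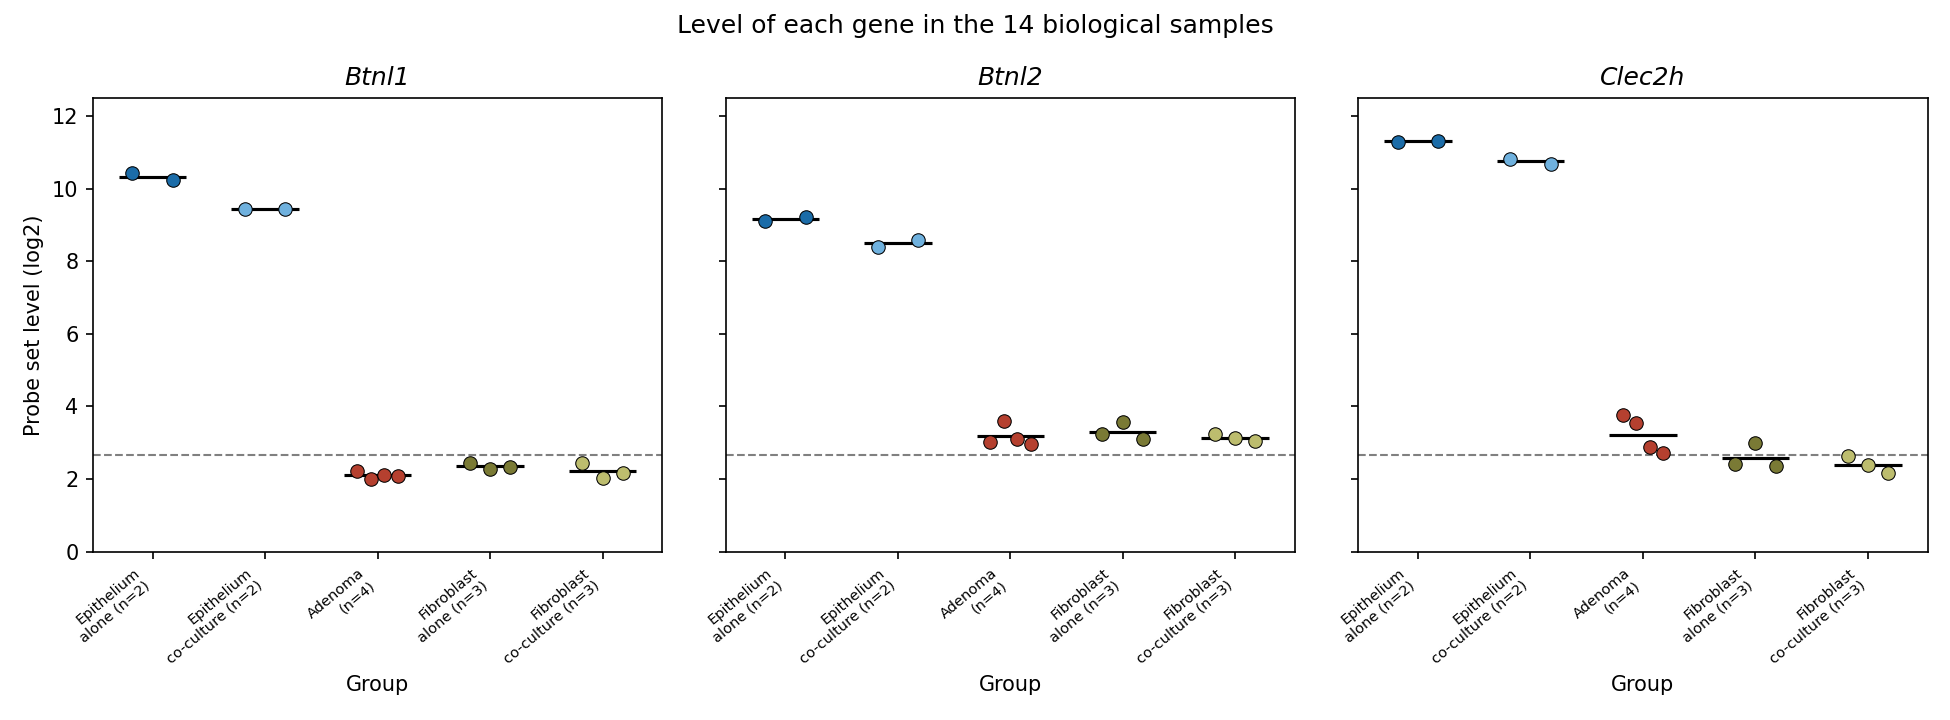
Log2 level of the probe sets of Btnl1, Btnl2 and Clec2h (vertical axis) in the 14 biological samples, by group (horizontal axis). Points are samples, black bars are group means and the dashed line is the dim level of 2.67; the organoid samples lie at 8.40 or above and all others at 3.76 or below.

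The array labels were checked against marker genes. Epithelial identity genes averaged 10.73 in organoids alone, 10.97 in co-cultured organoids and 9.67 in adenoma cells, against 3.53 and 3.41 in the fibroblast groups. Fibroblast identity genes averaged 11.06 and 11.07 in the fibroblast groups and 3.44 to 3.83 elsewhere, with Fn1 at 9.55 in adenoma cells. The fibroblast cultures also carried immune transcripts: 12 macrophage and general immune genes averaged 8.93 and 9.02 there and 3.88 to 4.41 in the other groups. Not every gene of that list was low outside fibroblasts. Ctss averaged 8.90 in organoids alone and 8.33 in co-cultured organoids, and in adenoma cells Cd14 averaged 8.40 and Cd68 6.44. Although every animal is labelled male, 4 samples, the cultures of P28 and of Pl_III, had Xist between 7.57 and 8.29 with low Eif2s3y, while the other 10 had Xist at or under 2.81. The members' co-culture differences are given with and without these animals. Array medians ran from 3.48 to 3.58, and the number of animals limits the precision.

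In adenoma cells the members lay near the lower end of the scale. Of 12 epithelial identity genes, 4 fell and 1 rose against organoids alone, with a median of -0.69, and 5 fell and 0 rose against co-cultured organoids, with a median of -0.79. Among the 12, Cdx1 fell to 3.69, while the keratin gene Krt8 measured 12.16 against 12.21 in organoids alone. Cldn3, also among the 12, averaged 7.8 in adenoma cells against 11.8 in organoids alone. Its mean was 11.34 in the adenoma cells of P21 and P23 but 4.21 in those of P34 and P36. These values chose the genes and are given as a description. The mean of Btnl1 was 2.10 ± 0.083 (SD, n = 4) in adenoma cells against 10.33 ± 0.14 (SD, n = 2) in organoids alone, a difference of -8.23 on the log2 scale. Because the adenoma mean is dim, the difference from the dim level, -7.66, gives the bound: at least 202-fold lower. Against co-cultured organoids, at 9.44 ± 0.00079 (SD, n = 2), the difference was -7.34, or -6.77 from the dim level. Clec2h averaged 3.22 ± 0.51 (SD, n = 4) in adenoma cells against 11.30 ± 0.016 and 10.75 ± 0.091 (SD, n = 2 each) in organoids alone and co-cultured, differences of -8.08 and -7.53. Btnl2 averaged 3.17 ± 0.28 (SD, n = 4) against 9.15 ± 0.075 and 8.50 ± 0.13 (SD, n = 2 each), differences of -5.98 and -5.33. The comparisons share the adenoma samples. These were more alike between P21 and P23, and between P34 and P36, than across those pairs, as given below. Of all genes tested, 41.0% and 33.3% passed the threshold in them in either direction, and 18.5% and 14.3% in the lower direction, so a called difference was common.

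Among 18095 genes ordered by the size of the fall from organoids alone to adenoma cells, Btnl1 stood at place 8, Clec2h at 10 and Btnl2 at 97. Against co-cultured organoids the places were 12, 9 and 99. The members were chosen with this fall in view, so the places only describe that choice. Those of Btnl1 use its differences of -8.23 and -7.34, not the bounds from the dim level. All 22 absorptive enterocyte genes fell in adenoma cells in both comparisons, with medians of -6.80 and -6.33 on the log2 scale beside medians of -0.03 and 0.01 over all genes tested. Sis, the sucrase-isomaltase of the brush border, fell by 9.86 ± 0.21 (SE; limma adjusted p = 2.57e-11) from organoids alone. In such bulk samples, fewer cells of a type and less RNA per cell cannot be told apart, and the part of enterocyte content in the members' levels was not tested.

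Btnl1 was lower in organoids co-cultured with fibroblasts, and the values of Btnl2 and Clec2h lay lower without passing the test. Over all genes tested, limma called 4.03% changed (729 of 18095, 490 higher and 239 lower), with 1.32% called lower. Of the 3 measured members, 1 was called, in the lower direction. The members were chosen with the levels of these same organoids in view, so this count beside 1.32% is a description only. Btnl1 fell by 0.89 ± 0.15 on the log2 scale (SE; 95% interval -1.23 to -0.56; limma adjusted p = 0.00811), to 53.8% of its level in organoids alone. The fall was seen in both animals, at -0.99 in P28 and -0.80 in P30.

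Btnl2 differed by -0.66 ± 0.21 (SE; 95% interval -1.12 to -0.20; limma adjusted p = 0.118), with -0.70 in P28 and -0.62 in P30. Clec2h differed by -0.55 ± 0.33 (SE; 95% interval -1.27 to 0.17; limma adjusted p = 0.461), with -0.47 in P28 and -0.62 in P30. For all 3 genes, both co-cultured samples lay below both samples grown alone. The fit shares its spread over all groups, and for Clec2h the SD was 0.016 and 0.091 in the organoid groups but 0.51 in adenoma cells. For Btnl1 it was 0.14 and 0.00079 in the organoid groups. Its SD was 0.083 in adenoma cells and 0.091 and 0.21 in fibroblasts alone and co-cultured, whose means are all dim. Much of the spread behind the Btnl1 test thus came from dim samples. Ordered by size of the fall, Btnl1 was at place 337, Btnl2 at 855 and Clec2h at 1331 of the 18095 genes.

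Organoids alone and co-cultured came from the same animals, so the paired fit with the animal as a replicate block bears on these values. It called 2 of the 3 members, Btnl1 (limma adjusted p = 0.0119) and Btnl2 (0.0407), but not Clec2h (0.150), and it called 10.6% of all genes. The call of Btnl1 was lost in a fit of the compared groups alone (limma adjusted p = 0.0754, with 0 genes called over the table and 3659 at an unadjusted p under 0.05). Without P28 and Pl_III only 1 organoid sample, from P30, is left in each condition, and the spread comes from the other groups alone. The Btnl1 difference was then -0.80, that of Btnl2 -0.62 and that of Clec2h -0.62, and none was called. Leaving out 1 organoid sample, which leaves 1 in its group, kept the Btnl1 call only without the P30 sample grown alone. It lost the call in the other 3 cases. The size of the fall stayed between 0.80 and 0.99 over all 14 alternatives.

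In fibroblasts, where the members are at or near the dim level, co-culture with organoids gave no call. Only 0.00553% of genes (1 of 18095) passed the threshold, with 513 at an unadjusted p under 0.05, and 0 of the 3 members did, adjusted or unadjusted. The differences were -0.13 ± 0.12 for Btnl1, -0.16 ± 0.17 for Btnl2 and -0.19 ± 0.27 for Clec2h (SE; limma adjusted p = 1 for each). Their 95% intervals ran from -0.40 to 0.14, from -0.54 to 0.21 and from -0.78 to 0.40. By animal, Clec2h moved by 0.23 in Pl_I, -0.61 in Pl_II and -0.19 in Pl_III, so its values had no common direction. Without P28 and Pl_III the differences were -0.11 for Btnl1, -0.22 for Btnl2 and -0.19 for Clec2h (limma adjusted p = 1 for each).

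The difference between the organoid and the fibroblast response was tested as an interaction, which 1.11% of genes passed. None of the 3 members did, by limma, and at an unadjusted p under 0.05 only Btnl1 did (0.00225). Btnl1 gave -0.77 ± 0.20 (SE; limma adjusted p = 0.0969), Btnl2 -0.50 ± 0.27 (0.503) and Clec2h -0.36 ± 0.43 (0.825). Without P28 and Pl_III, which leaves a single organoid sample in each condition, the values were -0.69, -0.40 and -0.43, and none was called. A gene near the lower end of the scale in fibroblasts has little room to fall there. A difference of response between the cell types was therefore not shown for any member at adjusted p under 0.05.

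Adenoma samples were also split by the word T2, which the titles of P21 and P23 carry and those of P34 and P36 do not. Its meaning is not given. Over 10681 probe sets with a mean above 6, differences between repeat arrays had an SD of 0.215 to 0.223. The SD was 0.301 to 0.339 between P21 and P23, 0.308 to 0.325 between P34 and P36, and 0.638 to 0.676 across the split. Samples were thus more alike within a side than across, while the fits and SDs count each animal as independent. The cause was not tested. Clec2h was higher in the samples titled T2, at a mean of 3.65 against 2.79, a difference of 0.87 ± 0.22 (SE; 95% interval 0.38 to 1.35; limma adjusted p = 0.0362). On single arrays the 2 repeats of P21 gave 3.62 and 3.90 and those of P34 gave 2.91 and 2.83, so the repeats lay closer together than the 2 animals did. Both means are far below the organoid levels of 10.69 to 11.31, and the lower, 2.79, lies just above the dim level of 2.67. Of all genes, 7.14% passed this comparison, and 1 of the 3 members did. The call was lost when only the first arrays of P21 and P34 were used (0.78; limma adjusted p = 0.0567) and when any 1 adenoma sample was left out (0.76 to 0.97; adjusted p from 0.102 to 0.235).

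Btnl1 and Btnl2 did not pass the same test. Btnl1 differed by 0.01 ± 0.16 (SE; 95% interval -0.33 to 0.36; limma adjusted p = 0.996), with a mean of 2.11 in the samples titled T2 against 2.09, both dim. Btnl2 differed by 0.27 ± 0.20 (SE; 95% interval -0.18 to 0.71; limma adjusted p = 0.666). The P21 repeats gave 2.20 and 2.21 for Btnl1 and 2.93 and 3.12 for Btnl2, and the P34 repeats 2.27 and 1.97 for Btnl1 and 3.29 and 2.93 for Btnl2. The enterocyte genes differed in both directions across this split: 5 of 22 were called higher in T2 and 2 lower. Of the 22 differences, 18 were positive and 4 negative, with a median of 0.26. Cdhr5 was higher by 2.67 ± 0.33 (SE, limma adjusted p = 0.000436). Slc5a1, the sodium-glucose transporter, was higher by 3.28 ± 0.28 and Fabp2, a fatty acid binding protein, by 1.24 ± 0.23, while Anpep, a brush border peptidase, differed by -3.65 ± 0.33 (SE; limma adjusted p = 2.35e-05, 0.00714 and 3.83e-05). Whether the shift in Clec2h belongs with that of other enterocyte genes was not tested.

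**Figure D2:**
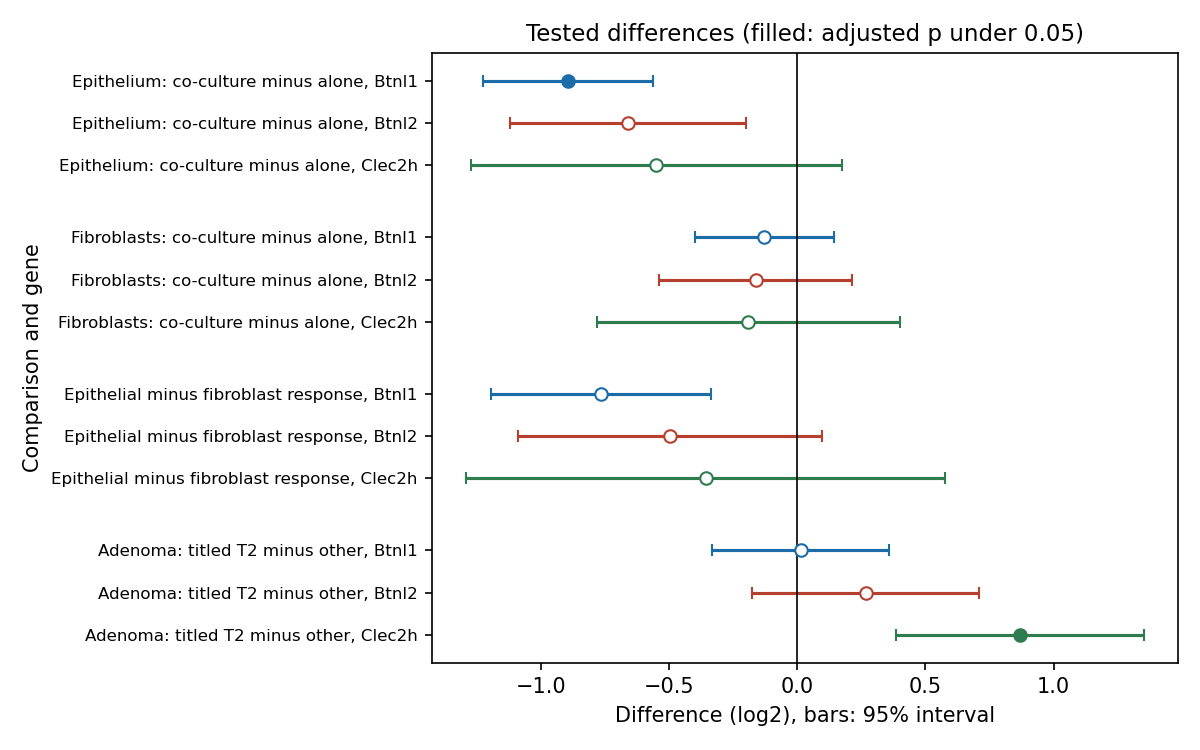
Differences on the log2 scale (horizontal axis) with 95% intervals (bars) for Btnl1, Btnl2 and Clec2h in the 4 tested comparisons (vertical axis). Filled points passed adjusted p under 0.05: Btnl1 in organoids (-0.89) and Clec2h between adenoma samples (0.87).

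The 17 listed butyrophilin and Skint genes outside the members, from their wider family, were low in every group; the pseudogene Btnl5-ps was not on the list. All were measured and 8 passed the filter; the highest group mean was 4.17, for Btn1a1, the milk fat butyrophilin, in adenoma cells. In organoids 0 of 8 changed with co-culture by limma (1 at an unadjusted p under 0.05), and Btn1a1 (0.52 ± 0.22, SE; limma adjusted p = 0.248) and Btnl9 (-0.37 ± 0.17; 0.302) had the smallest p. From organoids alone to adenoma cells 1 rose, Btn1a1 (0.73 ± 0.19; limma adjusted p = 0.00892), and 2 fell, Mog, a myelin protein of the same superfamily (-0.49 ± 0.16; 0.0253), and Btnl9 (-0.43 ± 0.15; 0.0382). Those calls were lost in 2, 4 and 5 of 9 alternatives in that order. Against co-cultured organoids 0 of 8 were called by limma (0 at an unadjusted p under 0.05). In the T2 split 1 of 8, Skint4, differed (-1.78 ± 0.25, limma adjusted p = 0.00102), beside 7.14% of all genes. The list's median difference was -0.06 in organoid co-culture and -0.04 in adenoma cells against organoids alone, beside -0.02 and -0.03 over all genes.

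The B7 genes, which encode ligands that raise or lower T cell activation, included genes that rose and genes that fell. All 8 passed the filter. With co-culture 1 of 8 rose in organoids and 0 fell: Cd276, the B7-H3 ligand, rose from 6.21 to 8.04, by 1.83 ± 0.32 (SE; limma adjusted p = 0.00875), and did not pass in 4 of the 14 alternatives. From organoids alone to adenoma cells 3 rose and 1 fell, beside 41.0% of all genes called in either direction. Vtcn1, the inhibitory ligand B7-H4, rose by 4.67 ± 0.36, Cd276 by 2.70 ± 0.27 and Cd80, a ligand of CD28 and CTLA-4, by 1.83 ± 0.38 (SE; limma adjusted p = 9.76e-07, 8.6e-06 and 0.00196). Icosl, the ligand of ICOS, fell by 1.44 ± 0.28 (SE; limma adjusted p = 0.00124). Against co-cultured organoids the counts were again 3 higher and 1 lower, beside 33.3% of all genes called in either direction. In fibroblasts 0 of 8 changed with co-culture by limma (0 at an unadjusted p under 0.05).

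Of 14 genes of the Clec2 family and its Klrb1 receptors, 10 were measured and 9 passed the filter; none of the 9 changed with co-culture in organoids or in fibroblasts by limma (1 at an unadjusted p under 0.05 in each), and in the T2 split none did either (0). Clec2e, which encodes Clr-a, another lectin-like protein of the gut epithelium, measured 10.78 and 10.70 in organoids alone, 10.49 and 10.43 in co-culture and 4.72, 4.98, 4.45 and 3.84 in adenoma cells. It fell by 6.24 ± 0.67 from organoids alone to adenoma cells (SE; limma adjusted p = 1.38e-05). In fibroblasts Clec2e was 4.92 and 5.15 in the cultures of Pl_III and 2.82 to 2.99 in those of Pl_I and Pl_II. Like Clec2h, Clec2e was high in organoids and low in adenoma cells, and its fibroblast levels differed by animal.

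Clec2d, which encodes Clr-b, a ligand present on many cell types, was not restricted to epithelium: it measured 7.91 and 7.43 in organoids alone and 7.71 to 8.62 in fibroblasts alone. It fell by 2.65 ± 0.29 from organoids alone to adenoma cells (SE; limma adjusted p = 1.5e-05), where it lay between 4.71 and 5.55. Of the 9 genes, 4 fell and 0 rose in adenoma cells against organoids alone, where 18.5% of all genes fell. Besides Clec2e and Clec2d these were Klrb1c (-0.91 ± 0.18, from 3.208 to a dim 2.295) and Clec2l (-0.84 ± 0.21, from 3.94 to 3.10). Against co-cultured organoids 3 fell, beside 14.3% of all genes. One of them was Klrb1c, whose call there was lost in 7 of 9 alternatives. The list's median was -0.28 in the first of these comparisons and -0.15 in organoid co-culture.

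**Figure D3:**
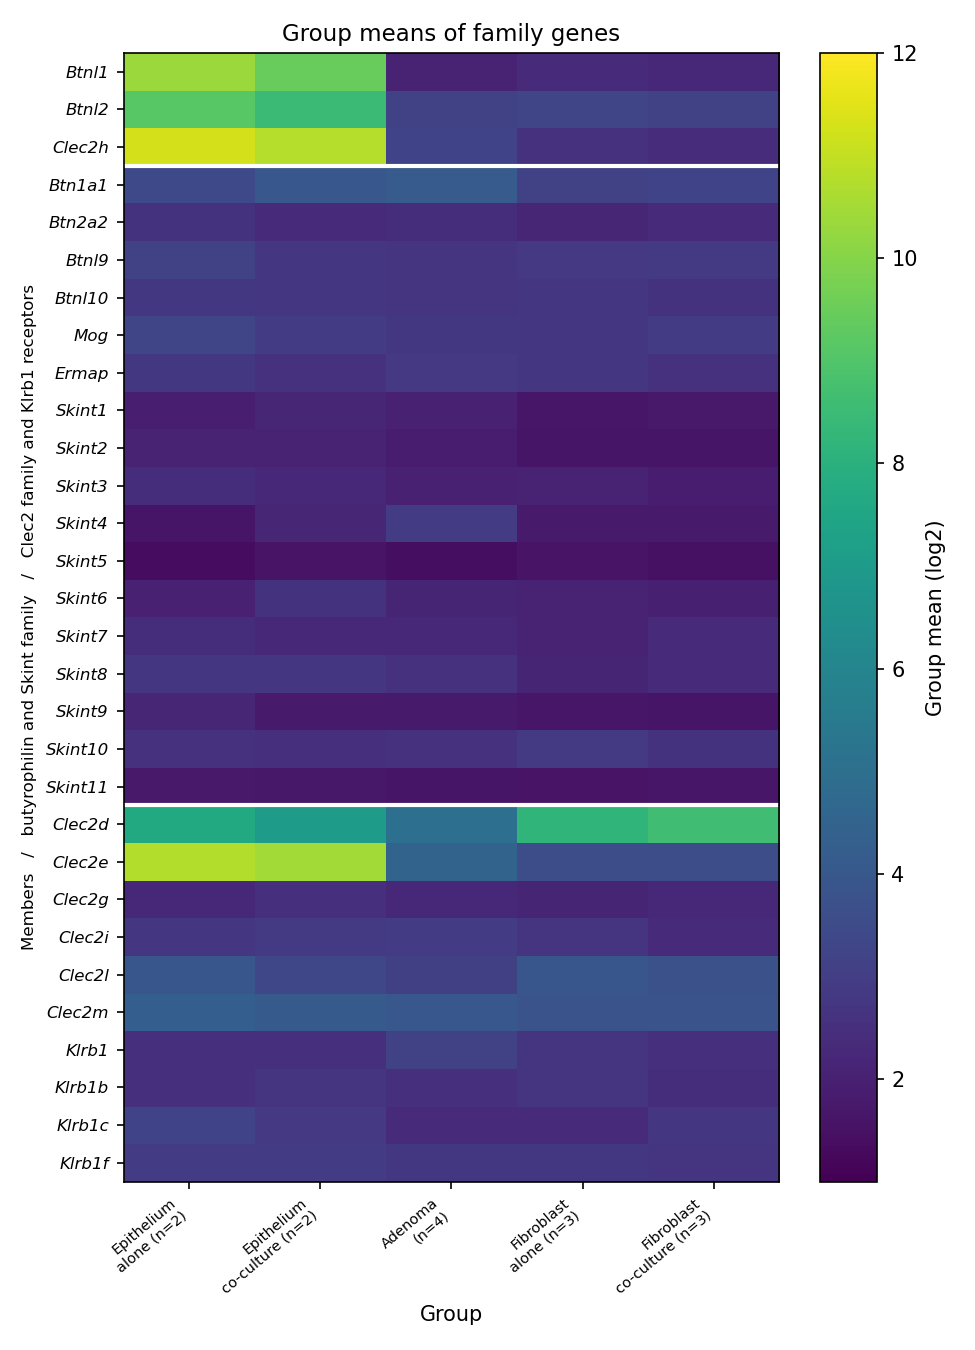
Group means on the log2 scale (colour) of the 3 measured members, of 17 butyrophilin and Skint genes and of 10 Clec2 and Klrb1 genes (rows) in the 5 groups (columns). Colours are to be compared along a row; Clec2e shows high organoid and low adenoma means like the members, and none of the 17 listed butyrophilin and Skint genes exceeds 4.17.

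T cell genes were near the lower end of the scale in every group. Of 19 on the list, 15 were measured and 10 passed the filter, and the highest group mean was 3.75, for Cd5 in organoids alone. The mean over the 15 genes lay between 2.76 and 2.91 in organoids alone, 2.58 and 2.80 in co-culture, 2.57 and 2.77 in adenoma cells and 2.49 and 2.70 in fibroblasts. With co-culture 0 of 10 changed in organoids by limma (2 at an unadjusted p under 0.05), and 2 fell in adenoma cells against organoids alone, Cd2 (-0.62 ± 0.13, SE; limma adjusted p = 0.00244) and Ccr9 (-0.65 ± 0.24; 0.0488), beside 18.5% of all genes. The Ccr9 call was lost in 7 of 9 alternatives, with an adjusted p up to 0.179.

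Epithelial genes that attract, feed or hold intraepithelial lymphocytes were followed as a further list, of which 15 of 18 were measured and tested; H2-T3 had no value of its own. With co-culture 1 of 15 fell in organoids and 0 rose. Ccl25, the chemokine that draws lymphocytes to the small intestine, went from 10.58 to 8.70, a fall of 1.88 ± 0.38 (SE; limma adjusted p = 0.0184; no longer passed in 5 of 14 alternatives). Il15, a cytokine that sustains these lymphocytes, differed by 0.54 ± 0.46 (SE; limma adjusted p = 0.634). The list's median difference was 0.18.

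In adenoma cells 4 of the 15 fell and 0 rose against organoids alone, where 18.5% of all genes fell and 41.0% were called in either direction. Ccl25 fell by 4.03 ± 0.33, Tnfrsf14, the receptor HVEM, by 2.49 ± 0.41, Il15 by 1.43 ± 0.40 and Il15ra, which presents Il15, by 1.09 ± 0.18 (SE; limma adjusted p = 1.35e-06, 0.000403, 0.0124 and 0.000322); the Il15 call was lost in 2 of 9 alternatives. Against co-cultured organoids 5 fell and 0 rose, beside 14.3% of all genes that fell. In the T2 split, which 7.14% of all genes passed, Ccl25 was higher by 1.05 ± 0.23 (SE, limma adjusted p = 0.0156). Ulbp1, a stress ligand of the receptor NKG2D, was higher by 2.22 ± 0.46 (limma adjusted p = 0.0129). Il18, an inflammatory cytokine, differed by -3.54 ± 0.45 (limma adjusted p = 0.000461). The calls of Ccl25 and Ulbp1 were each lost in 4 of 12 alternatives, with an adjusted p up to 0.129 and 0.0974. In fibroblasts 0 of 15 changed with co-culture by limma (3 at an unadjusted p under 0.05).

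Transcription factors of the intestinal epithelium, among them the HNF4, CDX and GATA families whose motifs were searched above, were the last list, with 16 of 18 tested. None of the 16 changed with co-culture in organoids by limma (4 at an unadjusted p under 0.05). Hnf4g had the smallest p (-0.68 ± 0.21, SE; limma adjusted p = 0.0988), followed by Gata6 (-0.51 ± 0.21; 0.225). Hnf4a (0.05 ± 0.32), Cdx2 (0.01 ± 0.51) and Cdx1 (-0.12 ± 0.27) lay near 0 with wide errors. From organoids alone to adenoma cells 2 rose and 8 fell, beside 18.5% of all genes that fell. Hnf4g went from 11.45 to 6.52 (-4.93 ± 0.18; limma adjusted p = 1.92e-09) and Cdx1 from 8.28 to 3.69 (-4.59 ± 0.24; 3.64e-08).

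Other factors fell less or further in the same comparison. Hnf4a fell by 1.20 ± 0.27, from 11.12 to 9.91, and Cdx2 by 1.72 ± 0.44, from 9.39 to 7.67 (SE; limma adjusted p = 0.00351 and 0.00719); the Cdx2 call was lost in 1 of 9 alternatives. Creb3l3, a factor of lipid metabolism, fell by 6.65 ± 0.16 and Nr5a2, a nuclear receptor, differed by -4.74 ± 0.40 (SE; limma adjusted p = 6.95e-11 and 1.99e-06). Against co-cultured organoids 2 rose and 9 fell, beside 33.3% of all genes called in either direction and 14.3% lower. The list's median was -1.27 against organoids alone, beside -0.03 over all genes. In the T2 split 3 were higher and 3 lower, beside 7.14% of all genes called in either direction. Cdx2 was higher by 1.63 ± 0.17 (SE, limma adjusted p = 0.000129) and Hnf4g differed by -0.20 ± 0.20 (0.799). These comparisons share the adenoma or the organoid samples with those of the members, so no relation between the factors and the members was computed.

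**Figure D4:**
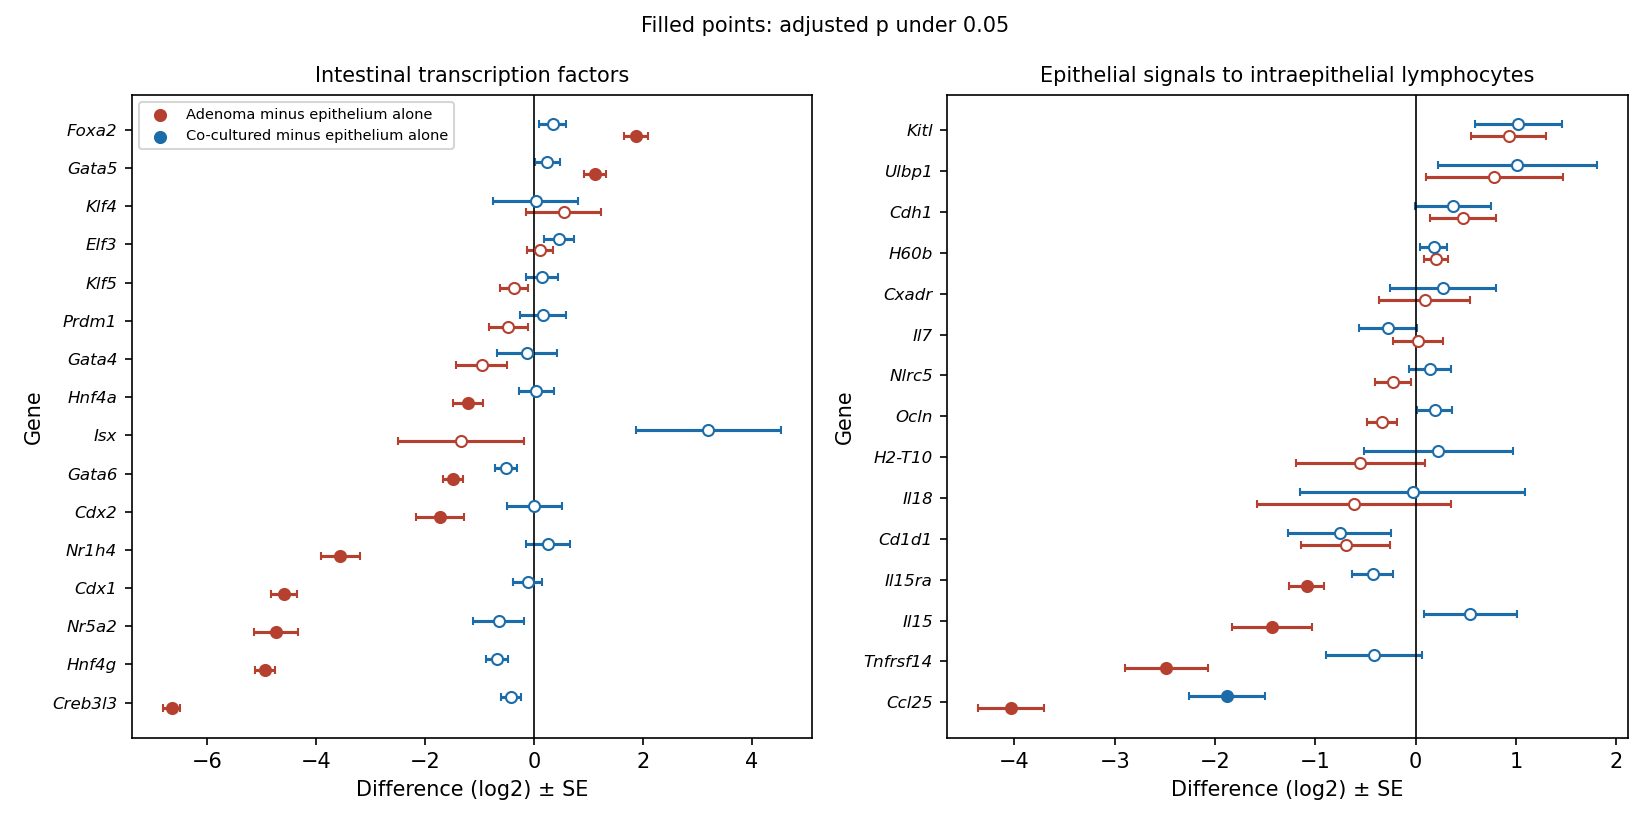
Differences on the log2 scale with SE (horizontal axis) of intestinal transcription factors (left) and epithelial signals to intraepithelial lymphocytes (right), from organoids alone to adenoma cells (red) and to co-cultured organoids (blue). Filled points passed adjusted p under 0.05; with co-culture only Ccl25 (-1.88) did.

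Absorptive enterocyte genes had mostly negative differences in co-cultured organoids, nearly all short of the threshold. Of 22 tested, 18 had a negative difference and 1 was called, Mep1a, a brush border protease (-1.26 ± 0.25, SE; limma adjusted p = 0.0185; no longer passed in 6 of 14 alternatives). Their median was -0.37, beside -0.02 over all genes. The mean level of the 22 genes went from between 10.90 and 10.93 in organoids alone to between 10.44 and 10.53 in co-culture. Whether the fall in Btnl1 is part of this shift was not tested. The 12 epithelial identity genes had 11 positive differences and 0 calls by limma (1 at an unadjusted p under 0.05), and of the 12 immune genes 1 rose, Laptm5, a lysosomal protein of blood cells (1.26 ± 0.25; limma adjusted p = 0.0165), to a level of 3.45. That call was lost in 5 of 14 alternatives, with an adjusted p up to 0.117.

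The genes whose levels followed those of Btnl1 and Clec2h most closely over the 14 biological samples are named next; of these 9 genes, Mttp, Mep1b and Fabp2 are on the enterocyte list. Likeness was the root mean square difference after each gene's own mean was taken off, on the log2 scale, and it is a description dominated by the gap between organoids and all other samples. For Btnl1 the nearest were Chp2, a partner of sodium-proton exchangers (0.245), Mttp, which loads lipid onto lipoproteins (0.265), Slc6a19, a neutral amino acid transporter (0.269), Slc26a3, a chloride-bicarbonate exchanger (0.290), and Cyp2c66, a cytochrome P450 (0.296). In co-cultured organoids, Slc6a19 (-0.83; limma adjusted p = 0.0325) and Slc26a3 (-0.87; 0.0119) also fell, while Chp2 (-0.35; 0.319), Mttp (-0.37; 0.535) and Cyp2c66 (-0.63; 0.160) did not pass.

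For Clec2h the nearest were Mep1b, a brush border protease (0.347), Cyp4f14, a cytochrome P450 (0.368), Fabp2 (0.374), Cyp2c66 (0.386) and Abcc2, an apical export pump (0.425). None of those 5 changed in co-cultured organoids by limma at adjusted p under 0.05; their differences ran from -0.63 to -0.27. The named genes are the nearest by definition, so they are no yardstick for the likeness of the members to each other. Among the 18095 genes tested, measured from Btnl1, Clec2h stood at place 21 (0.552). Btnl2, whose span between organoids and the other groups is smaller, stood at place 64 (0.956).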

How the data were processed

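The authors deposited 1 table of log2 values per probe set; the submitters' processing notes name RMA as the tool, without a version, and the protocol in the labels states 150 ng of RNA per array. No source used here gives the genome build. Of 41345 probe sets, 23521 carried 1 gene symbol, 1814 several and 16010 none. Technical repeats were averaged, where a gene had several probe sets the brightest on average stood for it, and genes whose highest group mean was at or under the 30th percentile of probe set means were dropped (4085 of 22180). The rest were fitted in R 4.3.3 with limma 3.58.1 (1 mean per group, empirical Bayes, Benjamini-Hochberg adjustment over all genes; threshold 0.05). For the T2 split the adenoma group was divided. Fold values near the lower end of the scale are compressed.

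Members and gene lists were chosen with earlier results of these data known, and no p was adjusted over a list alone. Named genes are the members and, in each list and comparison, up to 4 called genes with the smallest p. Where none was called, the 2 with the smallest p are named. Also named are Hnf4a, Hnf4g, Cdx1, Cdx2, Ccl25, Il15 and H2-T3, and the 5 genes most like Btnl1 and Clec2h. Krt8 was named outside this rule, and other list genes are only counted. Deviations from group means of the cultures of an animal correlated at 0.328 in organoids and 0.51 to 0.786 in fibroblasts, and the labels name the animals, so the paired fit is given. Separate cultures of an animal are not separate animals. The scripts were tested on simulated data.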

Additional observations from a re-analysis of the deposited data

Results flagged for a closer look

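A signal was present in probe sets outside the measured members and the lists, and these were singled out after their values had been seen. The probe set of Btnl6 and Btnl4 entered no comparison. Btnl5-ps was among the genes tested, but its tests are not given here. The probe set shared by Btnl6 and Btnl4, which can be attributed to neither gene alone, averaged 8.63 in organoids alone: 8.89 in P28 and 8.37 in P30. It measured 8.11 and 7.58 in co-cultured organoids, a change of -0.78 in P28 and -0.80 in P30. In adenoma cells it measured 2.92, 2.58, 2.26 and 1.93 (P21, P23, P34 and P36). In fibroblasts it lay between 2.23 and 3.50 alone and between 2.18 and 2.37 in co-culture. Its 2 organoid groups do not overlap the other groups, and within each animal the co-cultured sample is the lower; this was not tested.

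The pseudogene Btnl5-ps, which lies between Btnl4 and Btnl6, averaged 9.58 in organoids alone, with 9.59 in P28 and 9.57 in P30. Its co-cultured levels were 8.98 and 9.01, a change of -0.61 in P28 and -0.57 in P30. Adenoma cells measured 3.98, 3.52, 3.22 and 4.44, and fibroblasts 1.72 to 2.51. Whether its probes also bind transcripts of the neighbouring genes was not tested.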

How the results depend on the processing

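With 2 to 4 animals a group, the precision is limited by the number of arrays. Leaving out P28 and Pl_III, or 1 organoid sample, leaves 1 sample in a compared organoid group. Leaving out 1 adenoma sample likewise leaves 1 sample on a side of the T2 split. The count of members called in co-cultured organoids, 1 of 3, became 0 with the compared groups only and without animals P28 and Pl_III, became 2 with the replicate block, and ranged from 0 to 1 when 1 organoid sample was left out. The interaction count of 0 became 1 at adjusted p under 0.1. The count between adenoma samples by T2, 1, became 0 with the first arrays only and was 0 in each of the 4 fits that left out an adenoma sample. For members under the threshold, the sign turned for Btnl1 by T2 (-0.066 with the first arrays; -0.086 to 0.11 with a sample left out), for Btnl2 by T2 (-0.014 to 0.55) and for Clec2h in fibroblasts (-0.31 to 0.012). The cause was not tested.

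Over all genes, the 729 calls in co-cultured organoids became 0 with the compared groups only, 69 without P28 and Pl_III, 1922 with the replicate block, 1196 at adjusted p under 0.1 and 209 to 400 with a sample left out; the 200 of the interaction ranged from 5 to 862, and the 1292 by T2 fell to between 682 and 830 with a sample left out. The filters, cyclic loess, the trended prior and the mean of probe sets changed no member's call. The replicate block changed no other member's call. Of the list counts, 720 were within 1.5 times, 30 were higher and 50 lower; of the calls of named genes, 755 held and 79 were lost.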
